A study of Mus musculus with 8 samples.

Results

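The Bcl11 and Zfhx genes encode 5 mouse zinc finger transcription factors, Bcl11a, Bcl11b, Zfhx2, Zfhx3 and Zfhx4, and they are described here in fetal hypothalamic cells that carried 2 or 1 copies of the Ptf1a-cre allele. The members were found by gene name, and all 5 were present among the 51826 genes of each deposited table. The genes were chosen by their exon read counts in the same Homo and Het libraries, with earlier results known. Their differences are therefore given as a description, and no p-value of a single member is printed. Where a member is said to pass or miss a threshold, this places it among all genes tested and is not independent support for its difference. All 5 passed the low-count filter of the exon reads, together with 12257 genes tested in all.

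Cells were sorted from the hypothalamus of C57BL/6 fetuses at embryonic day 14.5. The Ptf1a-cre Homo group had the genotype Ptf1a cre/cre; Ai9/+ and held 4 libraries, numbered 9 to 12. The Ptf1a-cre Het group had the genotype Ptf1a cre/+; Ai9/+ and held 4 libraries, numbered 1 to 4. Both groups carried Cre at the Ptf1a locus and a single Ai9 reporter allele, which makes red fluorescent protein (RFP) after Cre has acted, so the sorted RFP-positive cells are the Ptf1a-cre lineage. No library without a Ptf1a-cre allele was part of the comparison. The labels call the groups control and KO, and they do not say whether each library was a separate embryo, so every error and p-value reflects differences among these libraries that can be technical in part. In sorted pools, fewer cells of a type and less RNA per cell cannot be told apart.

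Ptf1a is a basic helix-loop-helix factor that acts in a complex with an E protein and Rbpj, and it directs precursors towards inhibitory neurons in the spinal cord, cerebellum and retina. Bcl11a (Ctip1) and Bcl11b (Ctip2) are paired C2H2 zinc finger repressors that recruit the NuRD chromatin complex and bind COUP-TF nuclear receptors. Bcl11b is needed for corticospinal and striatal neurons and for T cell commitment, and Bcl11a is known for cortical projection neurons and for silencing fetal haemoglobin in red cells. The Zfhx genes encode very large proteins that combine many zinc fingers with several homeodomains. Zfhx3 (Atbf1) is a marker of the suprachiasmatic nucleus, the circadian clock of the hypothalamus, where it sets clock period and neuropeptide expression in adult mice. Zfhx4 binds the NuRD helicase Chd4 in human glioblastoma cells, and Zfhx2 is known for its part in pain sensation.

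Sequence upstream of the genes is shown for 3 members, because Bcl11a and Bcl11b had more exon reads in Homo libraries and Zfhx3 had fewer. RefSeq windows (GRCm38.p6) of 250 bases before to 50 after a gene start were at hand for 4 of the 5 members, Zfhx4 being the exception, and the Zfhx2 window lay within an annotated exon and is not printed. The stretches below run 5′ to 3′ on the gene's strand and stop at the first annotated exon in the window; those of Bcl11a and Zfhx3 lie inside the longer gene spans of the deposited tables. Capitals mark the letters CANNTG, the E-box core, and TGGGAA, a Rbpj-type sequence, which are the parts of the site bound by the Ptf1a complex.
Bcl11a, chr11:24080445-24080669, plus strand: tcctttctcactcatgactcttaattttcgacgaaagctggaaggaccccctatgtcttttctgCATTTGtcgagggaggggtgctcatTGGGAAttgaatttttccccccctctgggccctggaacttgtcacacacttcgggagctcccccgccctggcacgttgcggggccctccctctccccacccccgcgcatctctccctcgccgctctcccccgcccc
Bcl11b, chr12:108003603-108003664, minus strand: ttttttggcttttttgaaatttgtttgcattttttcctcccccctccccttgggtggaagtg
Zfhx3, chr8:108714394-108714643, plus strand: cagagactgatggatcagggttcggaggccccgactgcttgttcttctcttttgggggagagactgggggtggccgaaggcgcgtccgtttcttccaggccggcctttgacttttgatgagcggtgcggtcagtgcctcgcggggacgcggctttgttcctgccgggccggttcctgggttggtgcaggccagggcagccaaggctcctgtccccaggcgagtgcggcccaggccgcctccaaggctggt
The Bcl11a stretch of 225 bases held 1 CANNTG and 1 TGGGAA. The Bcl11b stretch of 62 bases and the Zfhx3 stretch of 250 bases held neither. Both strands were searched, and CANNTG reads the same on both. Over all 32817 RefSeq windows of 300 bases, 72.3% held CANNTG and 25.6% held TGGGAA, so each match is of a common kind and describes letters, not binding.

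The libraries held 2502387 to 3009181 exon reads. Ptf1a itself had 1 exon read in Het library 3 and none in the other 7, too few to check the genotype labels. A count of 0 allows up to 3 reads per library. Intronic reads made up 59.6% of gene reads in Homo library 9 and 67.7% to 69.2% in Homo libraries 10 to 12, against 63.8% and 63.9% in Het libraries 1 and 2 and 70.9% and 70.1% in Het libraries 3 and 4. Homo library 9 and Het libraries 1 and 2 thus formed a class of lower intron share. The library's slope of exon reads on transcript GC content also separated the genotypes. It was -0.18, -0.23, -0.23 and -0.32 log2 units per 10 GC points in Homo libraries 9 to 12, against 0.41, 0.42, 0.05 and 0.08 in Het libraries 1 to 4. Hypothalamic markers were present, led by Isl1, Nkx2-1 and Fezf1, with 1235 to 1758 counts per 1000000 exon reads (CPM) summed over 12 markers in Homo libraries and 1097 to 1404 in Het libraries. Of 11 hypothalamic markers tested, edgeR called 1 higher and 3 lower in Homo. The sum was carried by Isl1, which was higher, with a mean of 498 CPM in Homo and 217 CPM in Het libraries. The lower ones were Nkx2-1, with 180 CPM in Homo and 281 CPM in Het libraries, Hmx2, with 54.6 CPM in Homo and 95.9 CPM in Het, and Hmx3, with 35.8 CPM in Homo and 66.6 CPM in Het. The part of such a shift among hypothalamic cells in the Bcl11 and Zfhx differences was not tested. The early hypothalamic gene Rax lay at only 0.40 to 3.85 CPM over all libraries.

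Of the 5 members, 2 passed an adjusted p under 0.05 in edgeR's quasi-likelihood test over all genes, Bcl11b with more and Zfhx3 with fewer exon reads in Homo libraries. Across all genes tested 13.1% passed, 6.96% higher and 6.12% lower in Homo, and nothing is read from the members' count because this contrast chose them. DESeq2's Wald test called these and also Bcl11a and Zfhx2, where it called 22.2% of the 9164 genes it gave an adjusted p. The libraries of the genotypes did not overlap for 4 of 5 members in exon CPM, where 19.6% of all genes tested did not overlap, 10.3% higher and 9.34% lower in Homo. Those 4 were Bcl11a and Bcl11b, higher in Homo, and Zfhx2 and Zfhx3, lower in Homo. Summed over both Bcl11 genes, exon CPM ran from 521 to 607 in Homo libraries and from 345 to 440 in Het libraries. Summed over the 3 Zfhx genes, it ran from 1219 to 1301 in Homo libraries and from 1339 to 1863 in Het libraries.

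**Figure D1:**
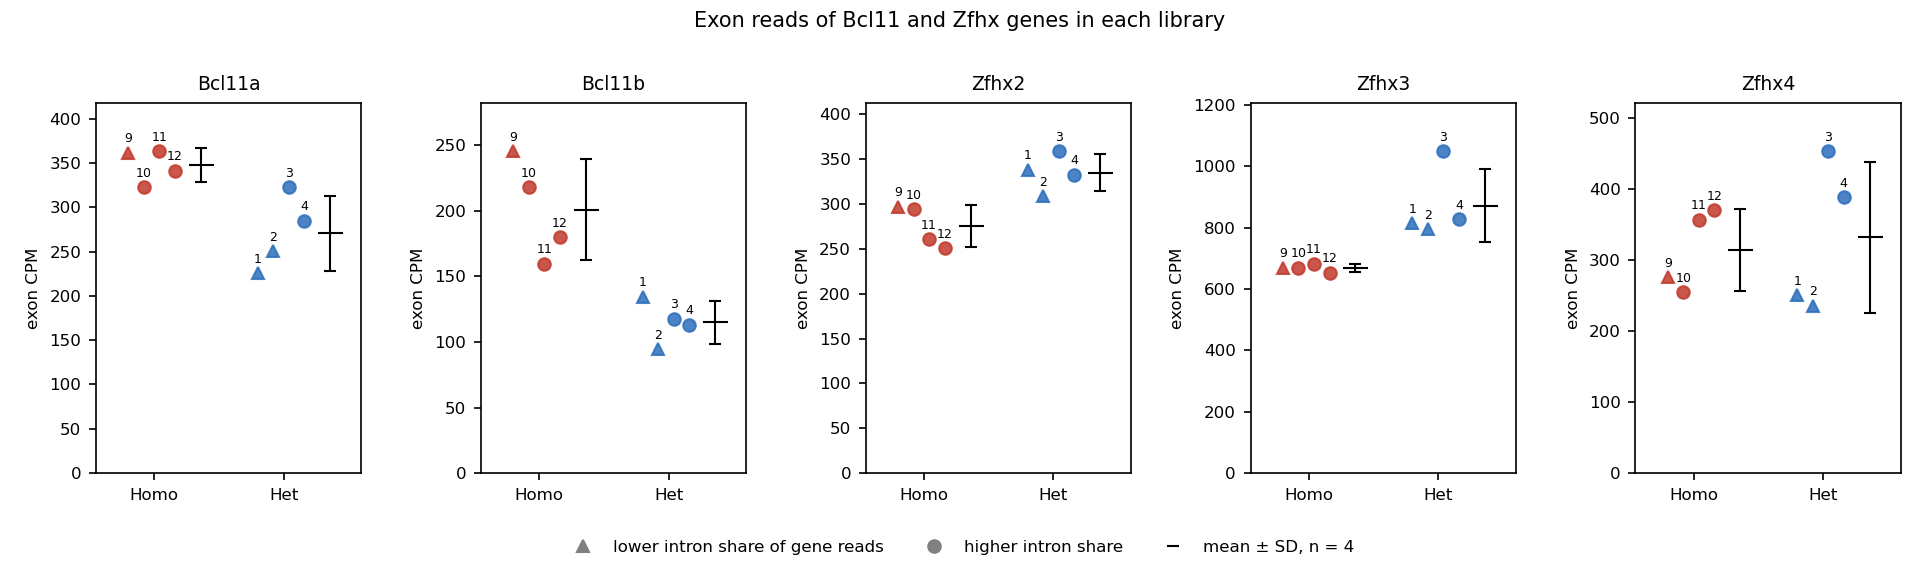
Exon reads per 1000000 (CPM, TMM-scaled) of each gene in the 4 Homo (left, red) and 4 Het (right, blue) libraries, with library numbers, and mean ± SD beside them; triangles mark the libraries with the lower intron share. Bcl11b is separated most clearly, with 159 to 246 CPM in Homo against 94.6 to 134 CPM in Het libraries, and Zfhx4 overlaps between the genotypes.

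Bcl11b (ENSMUSG00000048251) lies on the minus strand at chr12:107910403-108003602 of GRCm38, with 6 exons and 8111 exonic bases. It had 700, 540, 435 and 458 exon reads in Homo libraries 9 to 12, against 360, 283, 305 and 327 in Het libraries 1 to 4. In CPM these were 246, 218, 159 and 180 in Homo, against 134, 94.6, 118 and 113 in Het. Every Homo library lay above every Het library, Homo 9 was the highest, and Homo 11 the lowest of its genotype. The means were 201 ± 38.5 CPM in Homo and 115 ± 16.4 CPM in Het libraries (SD, n = 4 each), a log2 fold change of 0.81 ± 0.16 (SE).

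Because every Homo library lay above every Het library, the direction of the Bcl11b difference within each class of intron share was fixed in advance. The classes show its size only. At lower intron share Bcl11b had 246 CPM in Homo library 9 against a mean of 115 CPM in Het libraries 1 and 2. Among the libraries of higher intron share, the means were 186 CPM in Homo and 115 CPM in Het libraries. In the 8 fits that left out 1 library each, its log2 fold change ran from 0.65 to 0.90 and stayed past the threshold. These fits reuse the libraries on which the gene was chosen, so they show how far 1 library moves the value and nothing more. On whole-gene reads, which add the intron reads to the exon reads, the log2 fold change was 0.19 ± 0.21 and the call was lost. All of its exon reads mapped uniquely, and no annotated gene overlapped its exons. Reads that cross an exon-exon junction gave no matching separation, with 18, 12, 3 and 15 in Homo libraries against 18, 17, 12 and 9 in Het libraries. Their log2 fold change was -0.10 ± 0.54 (SE), opposite in sign to that of all exon reads and not past the threshold, on 3 to 18 reads per library.

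Bcl11a (ENSMUSG00000000861), on the plus strand at chr11:24078056-24174123, had a smaller difference whose source within the gene's reads was uneven. Its exon CPM were 362, 323, 364 and 342 in Homo libraries 9 to 12, against 226, 250, 323 and 285 in Het libraries 1 to 4. The genotypes did not overlap only by the narrowest margin, 322.54 CPM in Homo library 10 against 322.52 CPM in Het library 3. The log2 fold change was 0.36 ± 0.13 and did not pass the threshold. Among libraries of lower intron share it was 362 CPM in Homo library 9 against a mean of 238 CPM in Het, and among those of higher share 343 CPM in Homo against 304 CPM in Het.

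The deposited tables separate uniquely mapped from all exon reads, and this split divided the Bcl11a difference. Non-unique exon reads of Bcl11a were 211, 168, 213 and 174 CPM in Homo libraries, against 115, 112, 125 and 122 CPM in Het libraries. These did not overlap, and the mean was 192 ± 24.0 CPM in Homo and 118 ± 6.06 CPM in Het libraries (SD, n = 4 each). The share of all genes without overlap in non-unique reads was not computed, so nothing is read from this lack of overlap. Unique exon reads were 150, 155, 150 and 167 CPM in Homo libraries, against 110, 139, 198 and 163 CPM in Het libraries. In the unique reads all 4 Homo libraries lay within the range of the Het libraries, and the log2 fold change was 0.01 ± 0.16. Non-unique reads made up 58.4%, 51.9%, 58.7% and 51.0% of Bcl11a exon reads in Homo libraries, against 51.2%, 44.6%, 38.7% and 42.9% in Het libraries, with an overlap between Homo 12 and Het 1.

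The share of non-unique reads followed the share of exonic bases that lay inside another annotated gene. For Zfhx2, 100% of exonic bases lay inside such genes and 88.4% of exon reads were non-unique. For Bcl11a, 41.1% of exonic bases did (5410 of 13175 bases) and 50.2% of reads were non-unique. For Zfhx4 these were 2.55% and 3.31%, and for Bcl11b and Zfhx3 both were 0. The gene that covers the end of Bcl11a is the antisense transcript 4930538E20Rik (chr11:24160528-24172824, minus strand), which itself was assigned 3 exon reads in all libraries. Whether strand was used in counting is not given in the sources used here, so reads of Bcl11a and of this antisense gene cannot be told apart. Bcl11a exon-exon reads, all unique, were 50, 49, 43 and 40 in Homo libraries against 19, 63, 26 and 40 in Het libraries, with overlap. In CPM they ran from 72.1 to 91.5 in Homo and from 29.6 to 88.7 in Het libraries. Their log2 fold change was 0.44 ± 0.31 (SE), of the same sign as that of all exon reads, and did not pass the threshold.

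**Figure D2:**
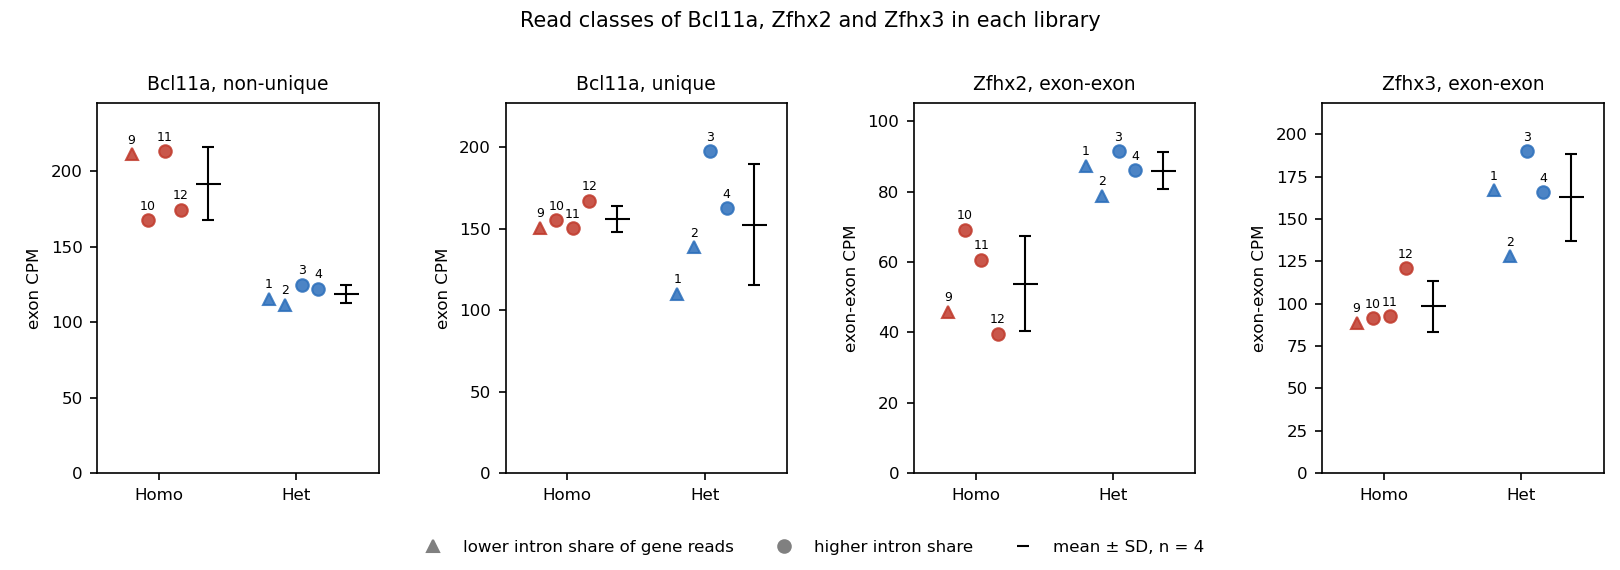
CPM by library of Bcl11a non-unique and unique exon reads and of Zfhx2 and Zfhx3 exon-exon reads, Homo (red, left) and Het (blue, right), with mean ± SD; triangles mark the lower intron share. Of the Bcl11a read classes shown, only the non-unique reads separate (168 to 213 CPM in Homo, 112 to 125 in Het). Exon-exon reads of Zfhx2 and Zfhx3 lie lower in every Homo library.

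Zfhx3 (ENSMUSG00000038872), on the plus strand at chr8:107942644-108961630, had the most reads of the family, with 16786 exon reads over 8 libraries. Its exon CPM were 670, 671, 684 and 654 in Homo libraries 9 to 12, against 815, 795, 1051 and 829 in Het libraries 1 to 4. Every Homo library lay below every Het library, and the Homo libraries were tightly grouped while Het library 3 stood above its group. The means were 669 ± 12.3 CPM in Homo and 872 ± 120 CPM in Het libraries (SD, n = 4 each), a log2 fold change of -0.38 ± 0.12. Zfhx3 passed the threshold with all 8 libraries and in none of the 8 fits that left out 1 library, where the log2 fold change ran from -0.43 to -0.33. Leaving out Het library 3 could not create an overlap and adds no support. The highest Homo value was 684 CPM, and the lowest Het value, 795 CPM, came from Het library 2.

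Exon-exon reads of Zfhx3, which come from spliced RNA, were 60, 49, 55 and 67 in Homo libraries against 107, 91, 108 and 106 in Het libraries. The genotypes did not overlap, and the log2 fold change was -0.72 ± 0.21. Zfhx3 was the only member called in the test over exon-exon reads, where 11% of the 7066 genes tested were called. Because the exon CPM of the genotypes did not overlap, the same direction in both intron share classes was fixed in advance. At lower intron share the level was 670 CPM of exon reads in Homo library 9 against a mean of 805 CPM in Het. In the class of higher share it was 669 CPM in Homo against 940 CPM in Het.

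Zfhx2 (ENSMUSG00000040721), on the minus strand at chr14:55060262-55092324, had 297, 294, 261 and 250 exon CPM in Homo libraries against 338, 309, 359 and 333 in Het libraries. Every Homo library lay below every Het library. The log2 fold change was -0.28 ± 0.11 and did not pass the threshold. Unique exon reads of Zfhx2 overlapped, at 23.6 to 39.3 CPM in Homo and 31.4 to 45.9 CPM in Het libraries. On unique exon reads the log2 fold change was -0.19 ± 0.21. Its exons lie inside the opposite-strand genes Thtpa, Gm20687 and Zfhx2os, and none of its intron reads mapped uniquely in any library, so its counts are uncertain. Thtpa, which encodes thiamine triphosphatase, had 132, 96, 94 and 120 exon reads in Homo libraries against 142, 171, 102 and 131 in Het libraries, with overlap. The antisense Zfhx2os had 13, 22, 49 and 28 exon reads in Homo libraries against 56, 22, 28 and 31 in Het libraries.

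Exon-exon reads of Zfhx2 numbered 31, 37, 36 and 22 in Homo libraries against 56, 56, 52 and 55 in Het libraries, and all but 0 to 2 per library were unique. In CPM every Homo library again lay below every Het library, with a log2 fold change of -0.68 ± 0.27 that did not pass the threshold. Zfhx2 and Zfhx3 were thus the 2 members without overlap in exon-exon CPM, against 17.6% of all genes tested on these reads.

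Zfhx4 (ENSMUSG00000025255), on the plus strand at chr3:5218526-5415857, did not separate by genotype. Its exon CPM were 275, 254, 357 and 370 in Homo libraries against 250, 236, 453 and 388 in Het libraries, a log2 fold change of -0.08 ± 0.20. Homo 9 and Het 1 and 2, the libraries of lower intron share, were 3 of the 4 lowest, and Het 3 was the highest. The sign of the difference turned with the class, 275 CPM in Homo against 243 CPM in Het at lower intron share and 327 CPM in Homo against 421 CPM in Het at higher share. Leaving out 1 library moved the log2 fold change between -0.22 and 0.06.

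Ratios between members within a library do not depend on how libraries are scaled, but they are not corrected for GC content. Bcl11b had 36.6, 32.5, 23.3 and 27.5 exon reads per 100 of Zfhx3 in Homo libraries, against 16.5, 11.9, 11.2 and 13.6 in Het libraries. All 4 Homo libraries lay above all 4 Het libraries, and the means were 30.0 ± 5.81 in Homo and 13.3 ± 2.36 in Het libraries (SD, n = 4 each), a ratio of 2.25. Bcl11a had 54.0, 48.1, 53.2 and 52.3 exon reads per 100 of Zfhx3 in Homo libraries, against 27.7, 31.5, 30.7 and 34.3 in Het libraries, again without overlap. Zfhx2 had 41.1 ± 3.38 per 100 of Zfhx3 in Homo and 38.7 ± 3.17 in Het libraries, with overlap. With both Bcl11 genes higher and Zfhx3 lower in every Homo library, the lack of overlap in their exon ratios was fixed in advance. On exon-exon reads the ratios to Zfhx3 overlapped between genotypes. Bcl11b had 5.45 to 30.0 per 100 in Homo and 8.49 to 18.7 in Het libraries. Bcl11a had 59.7 to 100 in Homo and 17.8 to 69.2 in Het libraries. The exon ratios show unequal change in exon reads between genes, and not which gene of a pair changed.

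Levels per length were ordered within each genotype by the deposited RPKM (reads scaled by exon length and library depth). In Homo libraries Zfhx3 led with a mean of 8.50 RPKM, followed by Bcl11a (7.05), Zfhx2 (6.99), Bcl11b (6.72) and Zfhx4 (5.25). Zfhx3 was above Bcl11a in 4 of 4 Homo libraries, while no other neighbours in that order kept it in all 4. In Het libraries the order was Zfhx3 (12.3), Zfhx2 (9.40), Zfhx4 (6.10), Bcl11a (6.04) and Bcl11b (4.21). There Zfhx4 and Bcl11a were not separated, with Zfhx4 above in 2 of 4 libraries, and every other neighbour kept its place in 4 of 4. RPKM counts all exon reads, of which 88.4% for Zfhx2 and 50.2% for Bcl11a were non-unique. The places of Zfhx2 and Bcl11a in both orders are therefore uncertain. The RPKM values of a library summed to between 70236 and 100824, highest in Homo library 9, so RPKM was not compared between genotypes.

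Intron reads, which can come from unspliced RNA, are given beside the exon reads, and their origin was not tested. The gene with the most intron reads, Zc3h7a, had 378560 to 606869 in Homo and 888497 to 1182779 in Het libraries. Zfhx3 intron CPM, on their own scaling, were 506, 482, 510 and 576 in Homo libraries against 967, 971, 1433 and 810 in Het libraries. The genotypes did not overlap, and the means were 519 ± 40.1 CPM in Homo and 1045 ± 269 CPM in Het libraries (SD, n = 4 each), a log2 fold change of -1.01 ± 0.25. Zfhx2 was the other member without overlap, at 28.1, 18.0, 23.4 and 22.5 intron CPM in Homo libraries against 33.0, 38.0, 45.6 and 33.4 in Het libraries. Of all genes tested on intron reads, 13.4% did not overlap. The intron log2 fold changes of the other members were -0.58 ± 0.22 for Bcl11a, -0.22 ± 0.22 for Bcl11b and -0.74 ± 0.26 for Zfhx4, all with overlap.

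**Figure D3:**
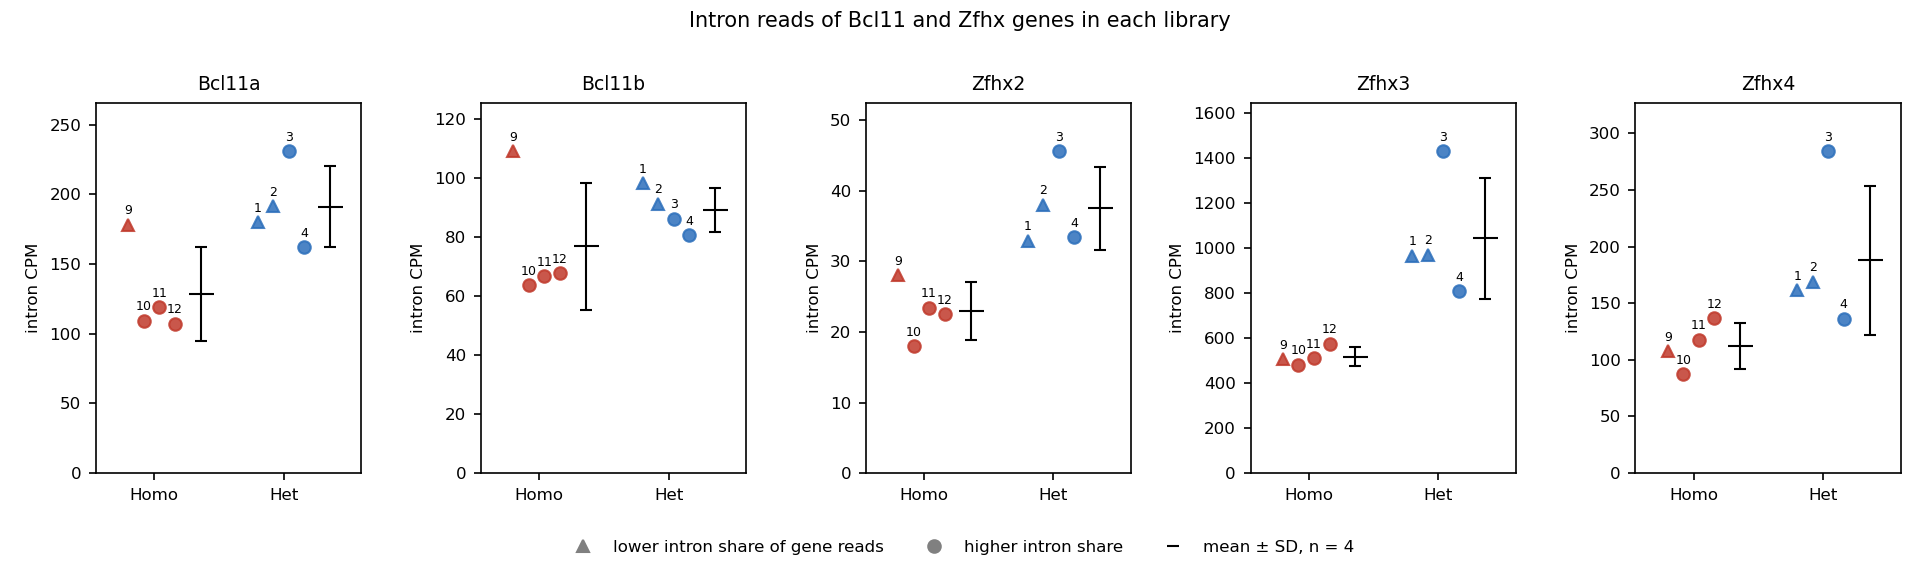
Intron reads per 1000000 (CPM, TMM-scaled on intron reads) of each gene by library, Homo (red, left) and Het (blue, right), with mean ± SD; triangles mark the lower intron share. Zfhx3 lies at 482 to 576 CPM in Homo against 810 to 1433 CPM in Het libraries, and Homo library 9 stands above the other Homo libraries for Bcl11a and Bcl11b.

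No member passed the threshold on intron reads in edgeR, where 0.564% of 17010 genes did. An unadjusted p under 0.05 was found for 4 of 5 members and for 4213 of the 17010 genes. No other tool was run on these reads. With the intron share class as a term, Zfhx2, Zfhx3 and Zfhx4 were called, all lower in Homo, where 11% of all genes were called and 5.24% were called lower. Without Het library 4, Zfhx3 (-1.15) and Zfhx4 (-0.90) were called, in a fit that called 2199 of 18254 genes tested. The sign of the intron differences depended on scaling, because the median of all genes moved from 0.02 on the intron scaling to 0.81 on the exon library sizes. On exon library sizes the log2 fold changes became 0.13 for Bcl11a, 0.53 for Bcl11b, 0.02 for Zfhx2, -0.23 for Zfhx3 and 0.01 for Zfhx4. Relative to the median of all genes, Zfhx3 lay at -1.03 on the intron scaling and at -1.05 on exon library sizes. Within a library, Bcl11b had 21.5, 13.2, 13.1 and 11.8 intron reads per 100 of Zfhx3 in Homo libraries. In Het libraries it had 10.1, 9.40, 6.01 and 9.95, without overlap. Bcl11a had 18.6 to 35.2 in Homo libraries against 16.1 to 20.0 in Het libraries, with overlap. Bcl11b intron CPM overlapped between genotypes while Zfhx3 intron CPM did not, and the ratio itself does not show which gene changed. The share of all genes without overlap was not computed for such ratios.

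**Figure D4:**
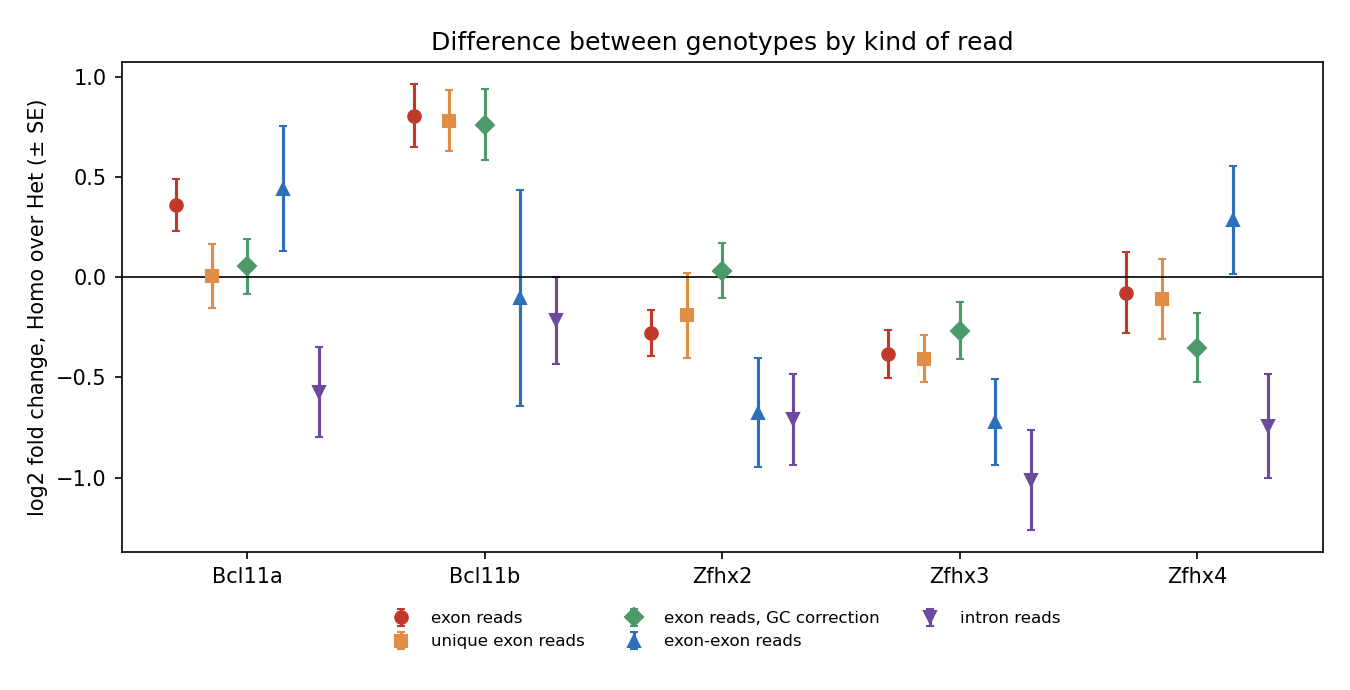
Log2 fold change (Homo over Het, ± SE) of each gene from exon reads, unique exon reads, exon reads after GC correction, exon-exon reads and intron reads. Zfhx3 is below 0 for every kind of read shown, from -0.27 to -1.01, while Bcl11b, among the kinds shown, is above 0 for exon reads only (0.76 to 0.81 with all or unique reads and after GC correction).

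Fold changes across all genes moved with transcript GC content, and the members lay at different points of that trend. In 5 classes of about 2448 genes, the median log2 fold change was 0.45 in the class of lowest GC, then 0.26, 0.04, -0.18 and -0.39 in the class of highest GC. Bcl11a (44.8% GC) lay 0.10 above the median of its class and Zfhx2 (57.4% GC) 0.11 above the median of its class, so both were near genes of like GC content. Bcl11b (50.1% GC) lay 0.77 above its class median, higher than 93.2% of the 2448 genes there. Zfhx3 (53.0% GC) lay -0.20 from its class median and Zfhx4 (45.4% GC) -0.34 from its own.

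With each library's trend on GC content removed, Bcl11b was the only member called, at 0.76 ± 0.18, where 1.13% of all genes were called. The other log2 fold changes were 0.05 ± 0.14 for Bcl11a, 0.03 ± 0.14 for Zfhx2, -0.27 ± 0.14 for Zfhx3 and -0.35 ± 0.17 for Zfhx4. The part of GC content in the uncorrected differences and that of genotype cannot be told apart for any of the 5 genes, since the slopes of the genotypes did not overlap. The correction brought Bcl11a and Zfhx2 near 0, ended the Zfhx3 call and moved Zfhx4 further below 0.

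**Figure D5:**
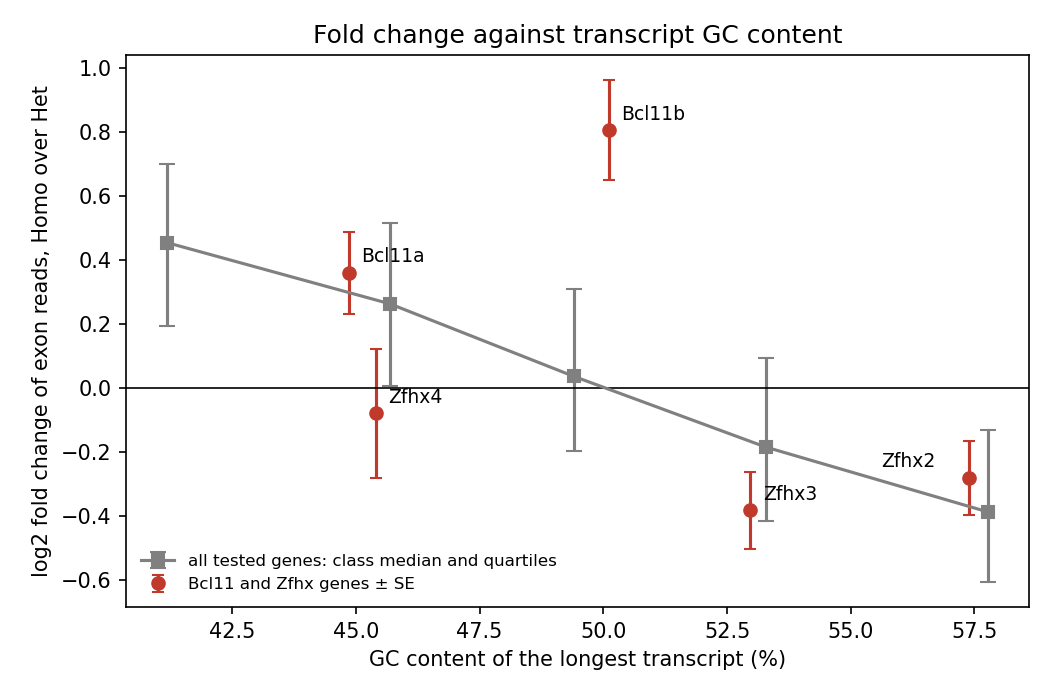
Log2 fold change of exon reads (Homo over Het) against the GC content of the longest transcript; grey squares are medians of 5 GC classes of all tested genes with quartiles, red points are the 5 genes ± SE. Class medians run from 0.45 at low GC to -0.39 at high GC, with Bcl11a and Zfhx2 near the line and Bcl11b 0.77 above its class median.

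Across the 8 libraries the log2 CPM of Zfhx2 and Zfhx3 were correlated (Pearson r = 0.86, Spearman 0.88), and so were Bcl11a and Bcl11b (r = 0.65), while Bcl11b and Zfhx3 ran opposite (r = -0.72). These points share genotype, scaling and GC slope, and the values are descriptive. Among 9145 candidate genes, the patterns most like Bcl11a were those of Qser1 (r = 0.99) and Atad2b (r = 0.98), and those most like Bcl11b were Nudt21 (r = 0.99) and Ogfrl1 (r = 0.98). Zfhx2 was followed most closely by Casc3 and Kmt2d (both r = 0.96), Zfhx3 by Gigyf1 (r = 0.96) and Sema4g (r = 0.95), and Zfhx4 by Tmem29 (r = 0.96) and Rrnad1 (r = 0.95). These r values were picked as the highest among the 9145 candidates over the same 8 libraries. Their height is partly due to that choice, and they are descriptive too.

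Of genes known to act with the members or to belong to the same classes, 85 were listed in 6 lists, 73 were tested and 6 were called (8.22%, against 13.1% of all genes). The COUP-TF list had 1 of 5 higher and none lower, with a median log2 fold change of -0.09 against 0.04 over all genes. The gene called was Nr2f2, which encodes COUP-TFII. It had 1083 ± 175 CPM in Homo and 646 ± 106 CPM in Het libraries (SD, n = 4 each), a log2 fold change of 0.75 ± 0.15 (edgeR adjusted p = 0.0061), higher in all 4 Homo than in all 4 Het libraries. Its paralog Nr2f1 had a log2 fold change of -0.12 ± 0.15 and did not pass.

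The NuRD list had 1 of 15 higher and none lower (median 0.10). The gene called was the histone deacetylase Hdac2, with 521 ± 32.8 CPM in Homo and 288 ± 21.6 CPM in Het libraries (log2 fold change 0.85 ± 0.11, edgeR adjusted p = 0.0011), again without overlap. The helicase Chd4 had 1061 ± 71.1 CPM in Homo and 958 ± 170 CPM in Het libraries and did not pass. Of the C2H2 factors of neuron development, 1 of 22 was called, lower (median 0.17): Insm1, a factor of neuronal precursors, fell to 59.0 ± 19.8 CPM in Homo, against 103 ± 19.6 CPM in Het libraries (log2 fold change -0.81 ± 0.21, edgeR adjusted p = 0.021). Homo library 11 overlapped the Het libraries, and the Insm1 call was lost without Het 1, Homo 10 or Homo 12.

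Of the cortical and striatal projection neuron factors, 2 of 12 were called, both higher (median 0.26). Isl1, a factor of striatal and arcuate neurons, had 498 ± 72.4 CPM in Homo and 217 ± 39.7 CPM in Het libraries (log2 fold change 1.20 ± 0.15, edgeR adjusted p = 7.5e-04). Sox5, which acts in corticofugal neurons, had 234 ± 28.2 CPM in Homo and 176 ± 13.0 CPM in Het libraries (0.41 ± 0.12, edgeR adjusted p = 0.040), a call lost in each of the 8 fits without 1 library. The genotypes did not overlap for Isl1, Sox5 or Rorb. The suprachiasmatic nucleus list had 1 of 10 higher (median 0.35), the nuclear receptor Rorb, with 143 ± 30.0 CPM in Homo and 75.9 ± 14.4 CPM in Het libraries (0.91 ± 0.17, edgeR adjusted p = 0.0053). Vip and Avp, the neuropeptides of that nucleus, were too low to be tested.

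None of the 11 zinc finger homeobox genes outside the Zfhx family was called in edgeR (median 0.20), while 2 had an unadjusted p under 0.05 and 1 was called by DESeq2. The most abundant, Adnp, had 309 ± 27.2 CPM in Homo and 259 ± 23.6 CPM in Het libraries, with overlap. The calls of Nr2f2, Hdac2, Isl1 and Rorb held in all 8 fits without 1 library, and Isl1 alone among the 6 was called after GC correction.

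Markers of other cells were examined because Bcl11b is also expressed in T cells and in the telencephalon. The 7 T lymphocyte markers were all too low to be tested, and their summed level was 10.2, 28.7, 16.1 and 11.4 CPM in Homo libraries against 7.10, 1.34, 3.47 and 11.4 CPM in Het libraries. Cd3e was at 0 in Het libraries 1 to 3, and Cd3d was at 0 in Homo libraries 9, 10 and 12 and in Het libraries 1, 3 and 4. The sums overlapped between genotypes. Homo 10 and Homo 11 lay above every Het library, while Homo 9 (10.17 CPM) and Homo 12 (11.38 CPM) lay below Het 4 (11.41 CPM). The part of T cells in the Bcl11b difference was not tested.

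The 9 telencephalic markers summed to 155 to 315 CPM in Homo and 270 to 328 CPM in Het libraries, and 0 of 7 tested were called by edgeR or by DESeq2, with 1 at an unadjusted p under 0.05. Of 8 neuronal markers, 5 were called higher and 1 lower, and they summed to 6718 to 7875 CPM in Homo against 6109 to 6434 CPM in Het libraries. The part of telencephalic or neuronal content in the Bcl11 and Zfhx differences was not tested.

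Homo library 12 and Het library 3 also held the most endothelial RNA, 205 CPM over 6 markers in Homo 12 against 9.47 to 35.5 in the other Homo libraries, and 148 CPM in Het 3 against 5.35 to 23.5 in the other Het libraries. Erythroid markers, of interest because Bcl11a acts in red cells, summed to 3.16 to 87.9 CPM in Homo and 4.11 to 106 CPM in Het libraries, with 0 of 5 tested called by edgeR or DESeq2 and 0 at an unadjusted p under 0.05. The part of red cells in the Bcl11a difference was not tested. Het library 3, the highest for Zfhx3 and Zfhx4, thus held the most endothelial and erythroid RNA of the Het libraries. It was also the highest of them for 8 thalamic and prethalamic markers, at 726 CPM against at most 517 CPM in the other Het libraries. Astrocyte and radial glia markers summed to 351 CPM in Het 3 against 109 to 220 CPM in the others, and mesenchyme and pericyte markers to 29.7 CPM against 6.68 to 14.5 CPM. Homo library 12 was likewise the highest Homo library for these 3 lists, at 665, 356 and 215 CPM. The part of any of these cells in the height of Het library 3 was not tested.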

How the data were processed

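RNA of sorted RFP-positive hypothalamic cells (10 ng per library, SMARTer Stranded Total RNA-Seq Pico kit, paired reads of 36 bases, per the labels' protocols) gave 8 libraries, 4 per genotype. The deposited tables hold read counts per gene over exons, introns and exon-exon junctions, in total and for uniquely mapped reads, per the file headers. RPKM values were also deposited by the authors, and TPM values deposited by the authors were not used. Genome builds are GRCm38 and mm10 per the submitters' processing notes; which software mapped and counted the reads is not given in the sources used here.

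The members, gene lists and tests were chosen with earlier results of these data known. Members were every gene bearing one of the 5 names. Within each list the genes called were named, up to 4, or else the gene with the highest mean CPM. For each member the 2 genes of highest Pearson r were named, among genes of at least 10 CPM on average.

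Exon reads were tested in edgeR 4.0.16 (R 4.3.3) with filterByExpr, TMM scaling and the quasi-likelihood F test, Homo over Het, called at a Benjamini-Hochberg adjusted p under 0.05 over all genes tested. Intron reads were tested alike on their own scaling. The SE of a log2 fold change was taken as its absolute value over the root of the F statistic. CPM are per 1000000 reads of the TMM-scaled library. Non-unique reads are total minus unique reads. Transcript GC content and gene overlaps came from GENCODE annotation of GRCm38, and the GC correction used a spline with 5 degrees of freedom per library. DESeq2 1.42.0 was an alternative. The pipeline was tested on simulated data. Limits from counts of 0 cover counting error only, because these reads carry no molecular identifiers and may be PCR copies. The level of 1 marker gene is not reported here.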

Additional observations from a re-analysis of the deposited data

Results flagged for a closer look

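In 30 groups of 4 libraries (5 genes, 2 genotypes, 3 kinds of read), 6 values lay far from the other 3 by Dixon's criterion. For independent groups chance gives about 1 in 20. The groups here reuse the same 8 libraries and are not independent, so no excess over chance is read from the count. Bcl11a intron CPM in Homo library 9 was 178, against 107 to 119 in the other Homo libraries. Bcl11b intron CPM in Homo library 9 was 109, against 63.6 to 67.7 in the other Homo libraries. Bcl11a exon-exon CPM in Homo library 10 was 91.5, against 72.1 to 73.9 in the others. Zfhx3 exon-exon CPM in Homo library 12 was 121, against 88.7 to 92.6 in the others. Zfhx3 exon CPM in Het library 3 was 1051, against 795 to 829 in the other Het libraries. Zfhx4 exon-exon CPM in Het library 1 was 49.9, against 77.4 to 82.7 in the others. Homo library 9 also had the lowest intron share of the Homo libraries and Het library 3 the most endothelial, erythroid, thalamic, glial and mesenchymal marker RNA of the Het libraries; their part in these values was not tested.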

How the results depend on the processing

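No paired analysis was possible because Homo libraries 9 to 12 and Het libraries 1 to 4 share no numbers. Genes called on exon reads numbered 1603, and 6 on whole-gene reads (5149 at an unadjusted p under 0.05), 138 after GC correction, 778 on exon-exon reads and 734 to 2077 without 1 library. The share called higher in Homo was 53.2%, and 36.4% without a low-count filter and 34.4% with a mean of at least 1 CPM. Genes called on intron reads numbered 96, and 8 with DESeq2 size factors, 0 on exon library sizes (3352 at an unadjusted p under 0.05), 791 without a filter, 1872 with the intron share class as a term and 0 to 2199 without 1 library. The listed genes called numbered 6, and 11 by DESeq2's Wald test, 11 without a filter, 0 on whole-gene reads (15 at an unadjusted p under 0.05), 1 after GC correction and 4 to 9 without 1 library.

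Exon log2 fold changes moved beyond the spread between replicates as follows. Bcl11a was 0.0064 on unique reads, -0.22 on whole-gene reads and 0.053 after GC correction. Bcl11b was 0.19 on whole-gene reads, where its call was lost, and turned to -0.10 on exon-exon reads. Zfhx2 was -0.41 without a filter, -0.39 at 1 CPM, -0.73 on whole-gene reads, 0.032 after GC correction and -0.68 on exon-exon reads. Zfhx3 was -0.77 on whole-gene and -0.72 on exon-exon reads, and Zfhx4 -0.50 on whole-gene reads. On exon library sizes the intron values became 0.13 for Bcl11a, 0.53 for Bcl11b, 0.020 for Zfhx2, -0.23 for Zfhx3 and 0.0085 for Zfhx4. Without 1 library, exon values ran from 0.28 to 0.41 for Bcl11a and -0.36 to -0.24 for Zfhx2. The whole-gene counts add the intron reads by construction; the cause of the other moves was not tested. Exon-exon reads and the intron share class were added after seeing the data. At 3 to 18 exon-exon reads per library, depth limits Bcl11b most.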
